A study of Homo sapiens with 8 samples.

Results

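MicroRNA (miRNA) loci are the places in the genome where RefSeq annotates a miRNA hairpin as a transcript of its own. The loci described here are all entries of the deposited stability tables whose accession belongs to a gene symbol made of MIR and a digit, or of MIRLET7, without the host genes whose symbols end in HG. They numbered 69 of the 22468 transcripts in either table, where the RefSeq gene table holds 1913 such loci. The symbol of 1 of the 69, MIR3653, came from GENCODE and not from that table. The table for RBMS1 knockdown cells listed 50 among 20474 transcripts and the table for control cells 43 among 21328. Both tables listed 24 loci, the knockdown table alone 26 and the control table alone 19. No locus with a MIRLET7 symbol was among them.

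The cells were SW480, an established line from a human colorectal adenocarcinoma, although the series text speaks of breast cancer. They stably expressed an shRNA against RBMS1, a protein that binds single-stranded nucleic acids, or a control shRNA. The groups were RBMS1 knockdown at 9 h of alpha-amanitin (10 µg/mL), RBMS1 knockdown at 0 h, control shRNA at 9 h of alpha-amanitin and control shRNA at 0 h, with 2 libraries each and 8 in all. The series text names a pair of shRNA clones and the treatment protocol a single clone, so which clone the knockdown libraries carried is not settled, and nothing in the labels says that the libraries of a group were separate cultures. Alpha-amanitin blocks RNA polymerase II, so a value of 9 h over 0 h compares the RNA left after the block with that before it. A value below 0 is a fall relative to the authors' scaling, which is not stated.

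The tables held the authors' own ratio of 9 h to 0 h, 1 log2 value per transcript with the libraries combined, so no value has an SD and no test between replicates could be made. RBMS1 stood at −0.87 in the authors' deposited table of knockdown cells and −0.14 in that of control cells, as means of its transcripts, and a ratio of this kind gives no check of the knockdown itself. Of 9 colon epithelial markers, EPCAM, CDH1, KRT8, KRT18 and CDX2 were listed in both tables, KRT20 and VIL1 for control cells alone, and CDX1 and LGR5 in neither. Of 8 markers of fibroblast, immune and endothelial cells 0 were listed. In such bulk RNA, fewer cells of a kind and less RNA per cell cannot be told apart.

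As background, most miRNAs are transcribed by RNA polymerase II inside long primary transcripts, many of them introns of protein-coding or non-coding host genes. The nuclease Drosha with its partner DGCR8 cuts out the hairpin in the nucleus, exportin-5 carries it to the cytoplasm, and Dicer trims it to the mature miRNA that an Argonaute protein holds. The seed near the 5′ end of the mature miRNA pairs with target mRNAs and lowers their translation and stability. The library protocol names removal of ribosomal RNA and no step that selects small RNA, so whether reads at a locus came from mature miRNA, hairpin, primary transcript or the pre-mRNA of a host was not tested.

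The sequences that the results turn on are shown from RefSeq (GRCh38.p14), 5′ to 3′, with the seed, bases 2 to 8, in capitals. MIR4787 was the only locus at −1 or below in both tables, MIR7706 the only locus at 1 or above in both, and MIR25 had the largest difference between knockdown and control cells. Among the 55 loci whose mature sequence was read, MIR98 and MIR4458 were the only ones that shared a seed, which is that of the let-7 family.
hsa-miR-4787-5p: gCGGGGGUggcggcggcauccc
hsa-miR-4787-3p: gAUGCGCCgcccacugccccgcgc
hsa-miR-7706: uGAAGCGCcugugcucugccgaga
hsa-miR-25-5p: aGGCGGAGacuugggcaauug
hsa-miR-25-3p: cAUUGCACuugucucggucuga
hsa-miR-98-5p: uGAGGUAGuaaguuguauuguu
hsa-miR-4458: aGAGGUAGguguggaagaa
The whole hairpins of MIR4787 (chr3:50675080-50675163, plus strand) and MIR25 (chr7:100093560-100093643, minus strand) follow, with the mature arms in capitals, because a read of either had to fall on these few bases or on the transcript around them.
MIR4787 hairpin: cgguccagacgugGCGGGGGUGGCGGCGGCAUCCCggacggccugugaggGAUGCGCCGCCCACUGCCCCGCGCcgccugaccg
MIR25 hairpin: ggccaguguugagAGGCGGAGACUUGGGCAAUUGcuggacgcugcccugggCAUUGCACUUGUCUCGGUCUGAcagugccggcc

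The annotated hairpins were short, between 56 and 151 nt with a median of 89 nt. By position, 30 of the 69 lay in an intron on the strand of a gene, 24 over an exon, 5 over another small RNA, 3 only on the strand opposite to a gene, 6 outside genes and 1, MIR4442, partly over TOP2B. A host gene with a listed value was found for 50. RefSeq sequences were read for 59 loci, with 75 mature miRNAs and 74 different seeds, so the members were a mixed set and not a family. MIR548AE1, MIR548F4, MIR450A1 and MIR378D2 belong to families with near-identical copies, and how the counting divided reads between such copies is not stated.

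The first thing the values showed was how few reads stood behind them. Unrelated loci carried identical values to the last digit. In the authors' deposited table of knockdown cells, 0.389501 was the value of 7 transcripts, of which MIR1206, MIR3654, MIR3960, MIR4469 and MIR4664 were 5. In the authors' deposited table of control cells, 0.394885 was the value of 6 transcripts, MIR1292, MIR3653, MIR450A1 and MIR765 among them. A value shared with another transcript was found for 23 of the 50 loci in knockdown cells, against 1.42% of all listed transcripts, and for 18 of the 43 in control cells, against 1.37%. Apart from that of MIR636 in control cells (−1.29), the repeated values of these loci could be written as ratios of at most 10 whole reads. With 0.389501 as the value of 1 read in a 9 h library against 1 read in a 0 h library of knockdown cells, and a read in the other library counted 1.31 times at 9 h and 1.11 times at 0 h, other values followed from the numbers of reads alone. In control cells the value of 1 read against 1 read was 0.394885, and a read of the other library counted 0.883 times at 9 h and 0.834 times at 0 h.

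Of the 50 values in knockdown cells, 34 (68.0%) equalled a ratio of at most 10 reads over the 4 libraries of that table to within 5e-06 on the log2 scale, against 0.821% of all listed transcripts. In control cells 24 of 43 (55.8%) did, against 0.689%. At most 4 reads sufficed for 23 values in knockdown cells and 19 in control cells, and 1 read at each time for 12 and 8. Small nucleolar and Cajal body RNAs, which are of similar length, matched in 13.9% of values in knockdown cells and 9.35% in control cells. Other non-coding transcripts matched in 2.28% and 2.71%, and protein-coding transcripts in 0.293% and 0.213%, and how many of the coding matches were coincidence was not tested. All 58 matched values of the loci had a single solution up to a common multiple, so the numbers below are the smallest that give the value, and 2 reads against 2 cannot be told from 1 against 1. A value without a match does not show that more reads were present.

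**Figure D1:**
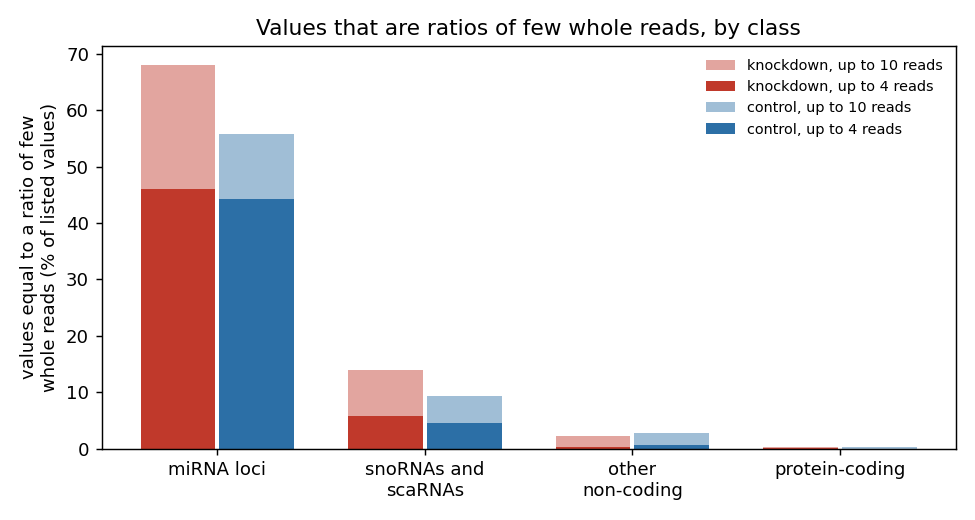
Share of listed log2 values (y axis, percent) that equal a ratio of at most 10 whole reads (pale bars) or at most 4 (dark bars) over the 4 libraries of a table, for 4 transcript classes on the x axis, RBMS1 knockdown in red and control shRNA in blue. The miRNA loci stand at 68.0% and 55.8%, above the small nucleolar and Cajal body RNAs at 13.9% and 9.35%.

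Such small numbers set the precision of a single locus. A locus with 1 read at each time had 1 of 2 reads at 9 h, a share with an exact (Clopper-Pearson) 95% interval of 1.26% to 98.7%. For 1 read of 3 at 9 h the share was 33.3% (0.840% to 90.6%) and for 2 of 3 it was 66.7% (9.43% to 99.2%). These intervals cover counting error only, since reads copied by PCR are not independent molecules. Of the 58 matched values, 30 rested on reads in a single library at 9 h and a single library at 0 h, 18 in knockdown and 12 in control cells, so for these the other library of the group had no read. A finite ratio of reads needs reads at both times, and only such ratios were tried for a match. This would also limit which loci could be listed, but the rule for listing a transcript is not stated. Among loci listed in 1 table, 35 of 45 values matched, and 23 of 48 values matched among the 24 loci in both tables. Hairpins in introns matched in 19 of 21 values in knockdown cells and 12 of 16 in control cells, and hairpins over an exon in 7 of 17 and 4 of 15.

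**Figure D2:**
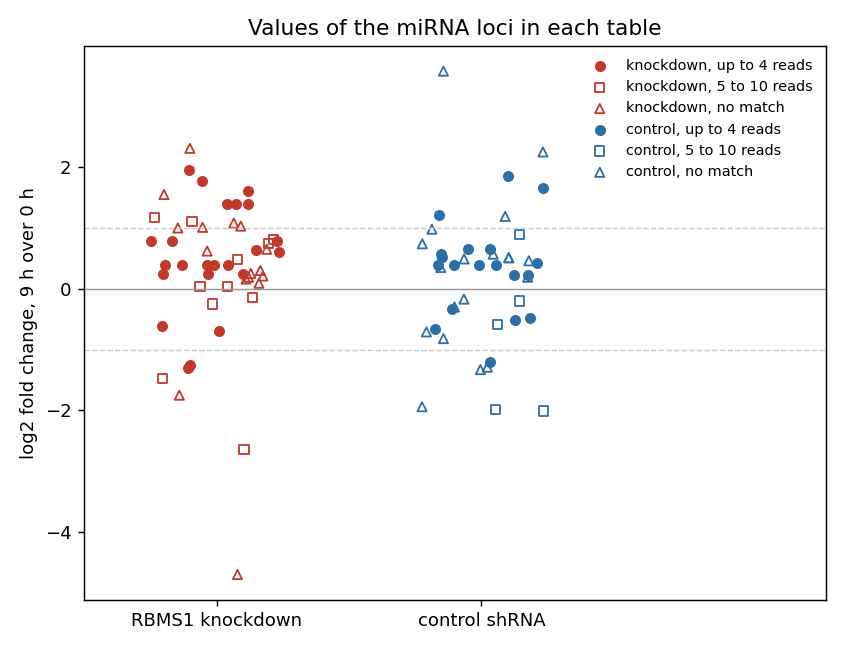
Each point is the deposited log2 value, 9 h over 0 h (y axis), of a miRNA locus in RBMS1 knockdown cells (left, 50 loci) or control shRNA cells (right, 43 loci), spread sideways for sight only. By the smallest number of whole reads that gives the value, filled circles need at most 4 and open squares 5 to 10. Triangles had no match, and the dashed lines mark −1 and 1.

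In the authors' deposited table of knockdown cells the loci had a median of 0.39, with quartiles of 0.10 and 1.01 and a range of −4.70 to 2.31, and 40 of 50 lay above 0. In that of control cells the median was 0.39, with quartiles of −0.50 and 0.61 and a range of −2.01 to 3.58, and 27 of 43 lay above 0. All listed transcripts had medians of −0.03 in knockdown and −0.04 in control cells, with 9797 of 20474 and 10160 of 21328 above 0. Small nucleolar and Cajal body RNAs had medians of 0.33 and 0.36, with 190 of 245 and 184 of 246 above 0. On the 24 loci in both tables the medians parted, at 0.43 in knockdown cells with 20 above 0, and 0.01 in control cells with 12 above and 12 below. To 2 decimals, the medians of all listed loci are the value of 1 read against 1 read. The zero point after a block of transcription is not fixed by the data: transcripts of cytosolic ribosomal proteins stood at 0.39 in knockdown and 0.41 in control cells, and relative to them the medians of the loci were 0.00 and −0.02.

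At −1 or below were 6 of 50 loci in knockdown cells (12%), against 12.9% of all listed transcripts, and 6 of 43 in control cells (14%), against 13.8%. At 1 or above were 13 in knockdown cells (26%), against 8.65%, and 6 in control cells (14%), against 8.32%. The lower side was thus near that of all transcripts in both tables. Among the values with no match to few reads, 2 of 16 in knockdown cells (12.5%) and 3 of 19 in control cells (15.8%) lay at −1 or below, and 5 of 16 (31.2%) and 3 of 19 (15.8%) at 1 or above, so these shares were no lower than those of all loci.

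Of the 24 loci in both tables, the lowest mean was that of MIR4787, which lies outside annotated genes, 78 bp from DOCK3, a gene for an activator of the GTPase RAC1. MIR4787 stood at −2.65 in knockdown cells and −2.01 in control cells in the authors' deposited tables. The knockdown value is that of 1 and 0 reads in the 9 h libraries and 6 and 2 reads in the 0 h libraries. The control value is that of 0 and 1 reads at 9 h and 3 and 2 reads at 0 h. In these smallest numbers both cell populations had 1 read at 9 h, against 8 at 0 h in knockdown and 5 at 0 h in control cells, and the locus is described first because its mean was the lowest.

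MIR3655 overlaps an exon of IK, a spliceosome component, and stood at −1.75 in knockdown cells and −0.30 in control cells in the authors' deposited tables, neither value matching few reads. IK itself was at −0.09 and 0.11. MIR7846, which overlaps an annotated exon of the TNF receptor gene TNFRSF1B, stood at −1.48 in knockdown cells, the value of 1 and 1 reads at 9 h and 4 and 4 at 0 h, and at −0.17 in control cells. For MIR4442 the authors' deposited tables gave 0.30 in knockdown and −1.33 in control cells, without a match in either. The signs of MIR4442 thus differed between the cell populations, as did those of MIR25 below.

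On the other side, MIR7706 was the only locus at 1 or above in both of the authors' deposited tables, at 1.01 in knockdown and 1.19 in control cells, with no match to few reads. It overlaps an exon of AKAP13, a scaffold protein of protein kinase A, whose transcript listed in both tables stood at −1.78 and −1.14 and whose other transcript, listed in knockdown cells alone, at 1.78. MIR6758 had the highest mean and lies in an intron of MARS1, the gene of a methionyl-tRNA synthetase. It stood at 1.96 in knockdown cells, from 2 and 1 reads at 9 h against 0 and 1 at 0 h, and at 0.43 in control cells, from 1 read in each of the 4 libraries. MARS1 itself lay at −0.01 and −0.11 in the authors' deposited tables.

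MIR6516 overlaps SCARNA16, a guide RNA of Cajal bodies, and stood at 1.55 in knockdown and 0.51 in control cells in the authors' deposited tables, unmatched in both. SCARNA16 was at 0.34 and 0.45. MIR4521, outside genes, stood at 1.17 in knockdown cells, from 1 and 2 reads at 9 h against 1 and 1 at 0 h, and at 0.57 in control cells, from 1 and 1 reads against 0 and 2. MIR1181 overlaps an exon of CDC37, an HSP90 co-chaperone, and the authors' deposited tables gave it 1.00, just under the threshold, in knockdown and 0.74 in control cells. CDC37 was at 0.66 and 0.74, close to the locus inside it.

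The comparison of knockdown with control cells asked whether the change over 9 h differed on RBMS1 knockdown. For each locus the value of control cells was subtracted from that of knockdown cells, and the median over all 19334 transcripts in both tables (−0.0182) was then taken off. The 24 loci had a median difference of 0.52, with quartiles of −0.19 and 1.30. A difference of 1 or above was found for 9 (37.5%), against 8.98% of all transcripts, and of −1 or below for 3 (12.5%), against 8.65%. The median size of the difference was 0.94, against 0.28 over all transcripts and 0.26 over small nucleolar and Cajal body RNAs. It was 1.28 for the 13 loci with few reads in either table and 0.81 for the 11 with no match in both. No locus was called different between the cell populations: the tables hold no value per library, and the recovered reads, known up to a common multiple for some loci, were not tested.

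**Figure D3:**
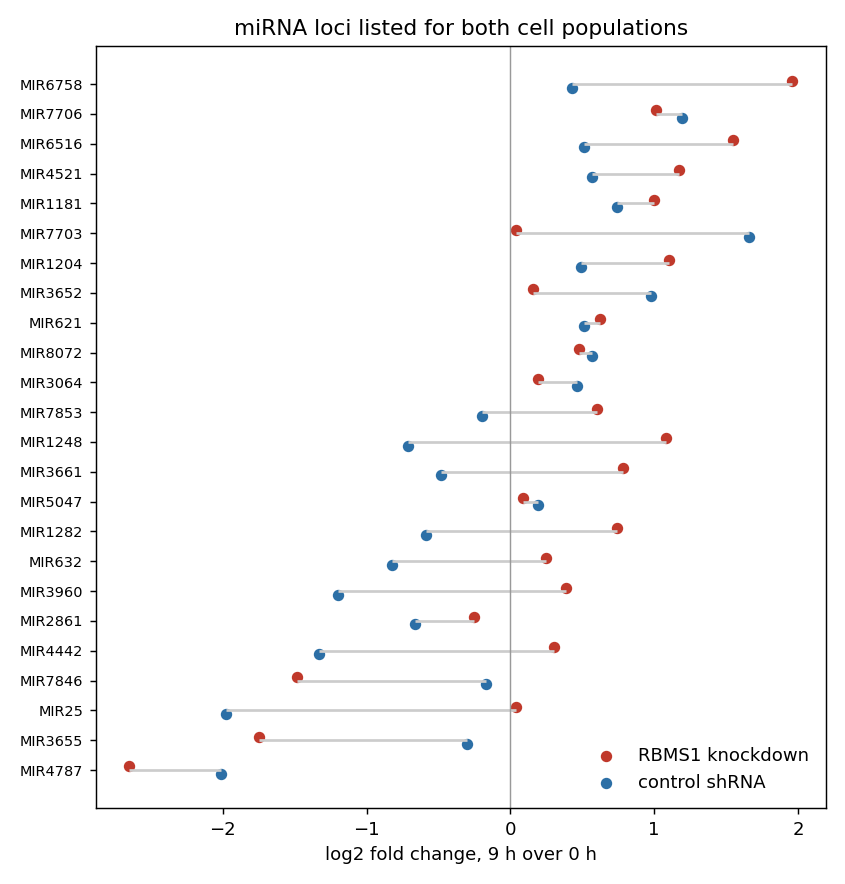
Deposited log2 values, 9 h over 0 h (x axis), of the 24 miRNA loci in both tables, ordered by their mean, with RBMS1 knockdown in red, control shRNA in blue and a grey line between them. On the deposited zero point, the red point lies above 0 and the blue point below it in 8 loci. MIR4787 at the foot is below −1 in both.

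The sign was the same in both cell populations for 16 of 24 loci (66.7%), against 74.4% of all transcripts. Both values were above 0 for 12 loci and below 0 for 4, and the share of all transcripts was not computed for either. For 8 loci the knockdown value was above 0 and the control value below it, against 12.6% of all transcripts, and for 0 loci the reverse, against 12.9%. This split holds only on the deposited zero point. Ribosomal protein transcripts stood at 0.39 in knockdown and 0.41 in control cells. Relative to them, MIR3064, MIR3652 and MIR7703 lay below in knockdown and above in control cells, the reverse order. MIR25, MIR4442 and MIR632 lay below them in both. Across the 24 loci Pearson's r between the cell populations was 0.43 and Spearman's rho 0.36, given as a description of points of very unequal depth.

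The largest difference, 2.03, was that of MIR25, in an intron of MCM7, a subunit of the replicative helicase. Its product miR-25-3p carries the seed of the miR-92 family. MIR25 stood at 0.04 in knockdown cells, from 2 and 1 reads at 9 h against 2 and 2 at 0 h, and at −1.98 in control cells, from 1 and 0 reads against 1 and 5. In these smallest numbers, the control value thus turned on 5 reads in a single 0 h library. The 3 MCM7 transcripts stood at −0.79, −0.02 and −1.04 in knockdown and −0.80, 0.71 and 0.68 in control cells in the authors' deposited tables, so the host did not show the order of the locus.

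MIR1248 overlaps SNORA81, an H/ACA small nucleolar RNA, in the gene of the translation initiation factor EIF4A2. It had a difference of 1.81, from 1.08 in knockdown and −0.71 in control cells in the authors' deposited tables, with no match. SNORA81 was at 0.31 and 0.60 and EIF4A2 at −1.08 and −1.03, so neither transcript around the locus had its change of sign. MIR4442 followed with 1.65 and MIR3960 with 1.61. MIR3960 stood at 0.39 in knockdown cells, from 1 read at each time, and at −1.20 in control cells, from 0 and 1 reads at 9 h against 1 and 2 at 0 h.

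At the other end, MIR7703 had the lowest difference, −1.60. It overlaps an exon of PSME2, a proteasome activator subunit, and stood at 0.04 in knockdown cells, from 0 and 2 reads against 0 and 3, and at 1.66 in control cells, from 2 and 0 reads against 0 and 1. PSME2 itself lay at 0.42 and 0.48 in the authors' deposited tables. MIR3655 had a difference of −1.43, MIR7846 of −1.29 and MIR3652, over an exon of the endoplasmic reticulum chaperone HSP90B1, of −0.81. MIR3652 stood at 0.16 in knockdown and 0.98 in control cells in the authors' deposited tables, and HSP90B1 at 0.30 and 0.28.

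**Figure D4:**
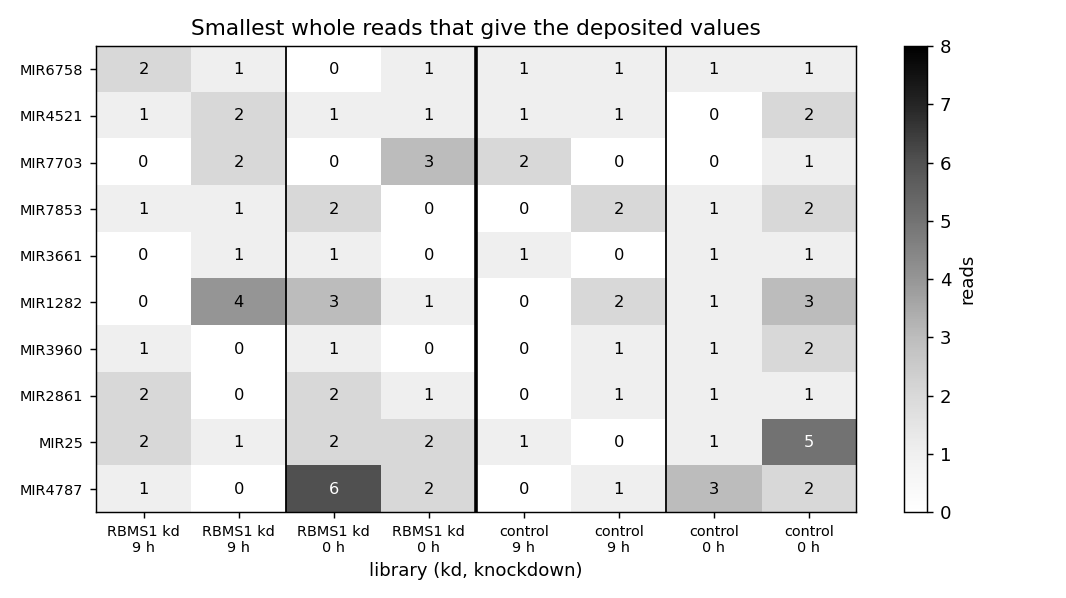
Smallest whole numbers of reads per library that give the deposited values, for the 10 miRNA loci matched in both tables (rows, highest mean at the top) and the 8 libraries (columns, RBMS1 knockdown left of control, 9 h left of 0 h). The order of the libraries within a group is not tied to a replicate number, and most cells hold 0, 1 or 2 reads, the highest being 6 for MIR4787 at 0 h.

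The other differences of 1 or more were 1.55 for MIR6758, 1.35 for MIR1282, 1.28 for MIR3661, 1.09 for MIR632 and 1.06 for MIR6516. MIR1282 stood at 0.74 in knockdown cells, from 0 and 4 reads against 3 and 1, so all its 9 h reads fell in a single library. In control cells it stood at −0.59, from 0 and 2 reads against 1 and 3. MIR3661 stood at 0.78 in knockdown cells, from 0 and 1 reads against 1 and 0, and at −0.48 in control cells, from 1 and 0 reads against 1 and 1. In these smallest numbers, the sign of MIR3661 thus turned on 5 reads over all 8 libraries. Near 0 lay MIR8072 at −0.07, MIR5047 at −0.09, MIR621 at 0.13 and MIR7706 at −0.17.

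The remaining shared loci lay between these ends. MIR621, outside genes and 655 bp from the ornithine transporter gene SLC25A15, stood at 0.62 in knockdown and 0.51 in control cells in the authors' deposited tables, unmatched in both. MIR632, over an exon of ZNF207, a kinetochore protein gene, stood at 0.25 in knockdown and −0.82 in control cells, also unmatched. MIR1204, in an intron of the long non-coding RNA PVT1, stood at 1.10 in knockdown cells, from 3 and 3 reads at 9 h against 2 and 2 at 0 h, and at 0.49 in control cells without a match. PVT1 lay at −0.05 and 0.25 in the authors' deposited tables. MIR8072, over an exon of SBNO1, stood at 0.48 in knockdown cells, from 2 and 1 reads at each time, and at 0.57 in control cells, and was among the most alike of the 24. MIR7853, in an intron of the coagulation factor gene F13A1, stood at 0.60 in knockdown cells, from 1 and 1 reads against 2 and 0, and at −0.20 in control cells, from 0 and 2 reads against 1 and 2.

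Loci in a single table held the widest values. MIR4458 was the lowest of all, at −4.70 in the authors' deposited table of knockdown cells, with no match, while its host transcript MIR4458HG was at −0.02 in knockdown and 0.28 in control cells. MIR98, the other bearer of the let-7 seed, stood at −1.25 in knockdown cells, the value of 1 and 0 reads at 9 h against 2 and 1 at 0 h. Its host HUWE1, a ubiquitin ligase, was at 0.27 in knockdown and −0.52 in control cells in the authors' deposited tables. No other locus of the let-7 family, and none of the miR-17-92 cluster or of the miR-21, miR-22, miR-29, miR-34, miR-200 and miR-210 families, was among the 69. MIR15A, a miRNA known to target BCL2, had 1 read at each time in knockdown cells and a value of 0.24, with its host DLEU2 at 0.11 in the authors' deposited table.

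The highest value in knockdown cells, 2.31, was that of MIR1307, over an exon of the ATP synthase gene ATP5MK, whose transcripts stood at 0.48, 0.48 and 4.14 in the authors' deposited table, a mean of 1.70 carried by the last. MIR4324 stood at 1.78, from 0 and 2 reads at 9 h against 1 and 0 at 0 h. MIR1247, MIR3936 and MIR554 shared the value 1.39, which is 2 reads at 9 h against 1 at 0 h, all in 1 library each. In the authors' deposited table of control cells MIR2110 was highest at 3.58, unmatched, over an exon of CCDC186, which was at −0.73. MIR564 followed at 2.25, unmatched, and MIR3609 at 1.86, the value of 1 and 2 reads against 1 and 0. MIR7114 at −1.94 and MIR636 at −1.29, over an exon of the splicing factor SRSF2, were the lowest of those in the control table alone.

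Most other loci of a single table repeated the values that 2 or 3 reads allow. In knockdown cells, MIR548AE1 and MIR6835 shared 0.78 with MIR3661, and MIR15A, MIR1321 and MIR6728 shared 0.24, all of them 1 read at each time but in other pairs of libraries. MIR1183, in an intron of the transcription factor gene SP4, stood at −0.61 in the authors' deposited table of knockdown cells, from 1 read at 9 h against 2 at 0 h. MIR4449, in an intron of the non-coding RNA DANCR, stood at −0.69, again 1 read against 2, while DANCR lay at 0.09. In control cells, MIR570 and MIR6840 shared 0.22, and MIR4273 and MIR613 shared 0.66, each 1 read against 1. MIR590, in an intron of the translation factor gene EIF4H, stood at −0.52 in the authors' deposited table of control cells, from 1 read against 2. MIR5088, in an intron of the arginine methyltransferase gene PRMT1, stood at 1.22, from 2 reads against 1. In these smallest numbers, a change of 1 read thus moved such a locus across 0 or past 1.

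Neighbouring loci were next compared, since those on a common transcript could carry the same change. MIR3064 and MIR5047 lie 375 bp apart in introns of DDX5, an RNA helicase that assists Drosha. The authors' deposited tables gave MIR3064 0.19 in knockdown and 0.46 in control cells, and MIR5047 0.09 and 0.19. DDX5 itself lay at 0.16 and 0.11, so both loci and their host lay above 0 in both cell populations. MIR2861 and MIR3960 overlap by 6 bp at CDK9, the kinase of the elongation factor P-TEFb. MIR2861 stood at −0.25 in knockdown cells, from 2 and 0 reads against 2 and 1, and at −0.66 in control cells, from 0 and 1 reads against 1 and 1. The pair had the same sign in control cells and opposite signs in knockdown cells, while CDK9 lay at −0.16 and −0.53 in the authors' deposited tables.

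Loci were also set beside their host genes, with a host's value taken as the mean of its transcripts. Where more than a single listed gene held a locus, the first in alphabetical order was taken. For MIR6516 this was SEC14L1, at 0.25 in knockdown and −0.58 in control cells, as means of 3 and 4 transcripts. The SEC14L1 transcript at −1.93 was listed in control cells alone, so these means cover unlike sets. SNHG20, which also holds MIR6516, stood at −0.64 and −0.34. In knockdown cells 22 of 36 loci had the sign of the host, and 25 lay above it, by a median of 0.43. In control cells 19 of 30 had the sign of the host, and 18 lay above it, by a median of 0.33. Of all listed loci, 40 of 50 lay above 0 in knockdown and 27 of 43 in control cells. A shared sign thus depends on how many hosts lay above 0, and no share for unrelated pairs was computed. Spearman's rho between locus and host was 0.40 over 36 loci in knockdown cells and 0.08 over 30 in control cells, a description in which locus and host can share reads. The pairs were not independent, since in knockdown cells PVT1, DDX5 and CDK9 were each the host of more than a single locus. Some host means also rested on an extreme transcript, as for ANKRD54 in knockdown cells, at −3.23 from −0.14 and −6.32. Among loci with no match to few reads, 10 of 13 in knockdown cells and 8 of 14 in control cells had the sign of the host. Over exons the sign was shared by 11 of 14 loci in knockdown and 5 of 11 in control cells, and in introns by 9 of 18 and 10 of 14, so neither position gave the higher share in both cell populations. The median host value was 0.34 over exons and 0.01 in introns in knockdown cells, and −0.05 and 0.11 in control cells. The higher share thus went with the higher host median, and an effect of position itself was not tested.

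**Figure D5:**
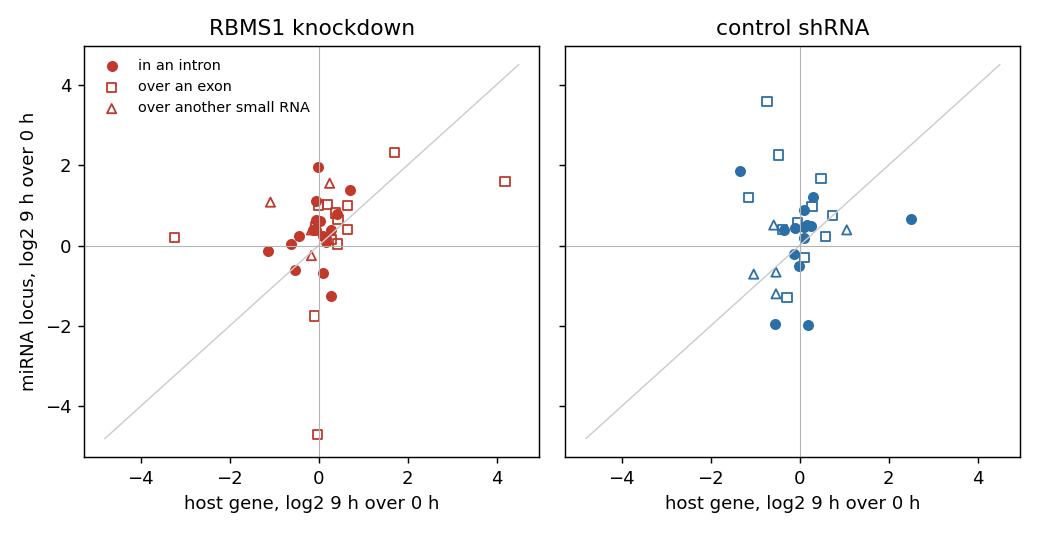
Deposited log2 value, 9 h over 0 h, of each miRNA locus (y axis) against the mean of its host gene's transcripts (x axis) in RBMS1 knockdown cells (left panel, 36 loci) and control shRNA cells (right panel, 30 loci), by position of the hairpin. The diagonal marks equal values, and most hosts lie between −1 and 1 while the loci spread more widely.

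The mRNAs of the proteins that make and use miRNAs were set beside the loci, and 23 of 25 on the list had a value in both tables. LIN28A and LIN28B, which block let-7 maturation, had none. As gene means in the authors' deposited tables, the list had a median of 0.03 in knockdown and −0.10 in control cells. In knockdown cells 2 lay at −1 or below, against 9.50% of all listed genes, and 3 at 1 or above, against 5.26%. In control cells 2 lay at −1 or below, against 10.7%, and 0 at 1 or above, against 4.84%. The 3 high means, of RAN, TARBP2 and AGO3, each came from a transcript listed in knockdown cells alone, at 9.85 for RAN, 7.36 for TARBP2 and 9.56 for AGO3 in the authors' deposited table.

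Over transcripts in both tables, the list's centred difference had a median of 0.05. AGO2, the Argonaute that cuts target RNA, was the only gene at 1 or above, against 4.89% of all genes, and 0 lay at −1 or below, against 4.16%. The transcripts of AGO2 stood at 1.00 and 0.39 in knockdown cells and −1.84 and 0.10 in control cells in the authors' deposited tables. For DROSHA they stood at 1.06 and −3.93 in knockdown and −1.76 and −0.78 in control cells, so its gene mean of −1.43 in knockdown cells joined transcripts of opposite sign, while that of −1.27 in control cells did not. DGCR8, with a single transcript, was at 0.37 and 0.33, and DICER1 at −0.07 and 0.10 as means in the authors' deposited tables.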

How the data were processed

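Total RNA of SW480 cells was sequenced at 9 h and 0 h of alpha-amanitin, and the authors deposited a log2 fold change per RefSeq transcript for each shRNA, per the file headers, with the libraries of a group combined. The submitters' processing notes name STAR 2.5, Cufflinks, Cuffdiff and hg38, without roles. The headers give neither direction nor base. That values run 9 h over 0 h was inferred from MYC (−1.38 in knockdown and −1.44 in control cells in the authors' deposited tables), FOS (−1.24 and −1.61) and JUN (−0.81 and −1.01), short-lived mRNAs. Base 2 follows from the whole-read ratios, in which doubling a read number moves a value by 1. Counts, depth, a filter rule and normalization are not stated, and 0 columns of per-sample values were left unused.

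Symbols came from the RefSeq gene table (GRCh38.p14), and for 1 locus, MIR3653, from GENCODE release 29, which also gave host genes. The members and lists were chosen with earlier results of these data known. Loci described in full were the 6 with the lowest and the 6 with the highest mean over the tables, the 4 largest and 4 smallest differences, neighbours within 10 kb, loci sharing a seed, and listed members of well-known families. The wide values of loci in a single table, and other loci given with their reads, were picked after their values were seen.

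The value of 1 read against 1 read and the weights of the libraries were fitted to 307 short RNAs (up to 200 nt) in knockdown and 302 in control cells, members included, with sums of up to 4 reads. Every ratio of up to 10 reads was then compared with each deposited value, a method chosen after seeing the data. It was run on simulated data with library weights above 1 only. That run scored matches and the ratio of 9 h to 0 h reads, and the split of reads between libraries was not tested. Counts at 1 or more in size (2-fold) are descriptions without a test. Alternatives were another zero point, 1.5-fold, fewer loci, other host values and, added after seeing the data, leaving out values of few reads. Python 3.11.15, NumPy 2.4.6, SciPy 1.17.1 and matplotlib 3.10.9 were used.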

Additional observations from a re-analysis of the deposited data

How the results depend on the processing

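No paired analysis was possible because the libraries of a group were combined into a single value upstream, and leaving out a replicate was not run for the same reason. Among the 55 loci whose mature sequence was read, none shared all mature sequences, so counting such loci once was not run. The other loci, those on chromosome 8 included, were not compared. Of 57 alternatives, 34 left a result within 1.5 times its count or inside the exact 95% interval of its median. That interval is taken over loci and not over replicates, so this is a label and not a test. Relative to ribosomal protein transcripts, loci at 1 or above in knockdown cells were 8 in place of 13, loci at −1 or below in control cells 10 in place of 6, and the medians were 0.00 in knockdown and −0.02 in control cells in place of 0.39 each, the control median being the only change of sign. Without loci over another small RNA or an exon of a listed gene, 30 were left in knockdown and 25 in control cells. Of these, 3 (knockdown) lay at −1 or below, 7 (knockdown) and 2 (control) at 1 or above. Of the 12 shared loci left, 5 had a difference of 1 or more in size, against 12 of 24, and 7 shared a sign between cell populations, against 16 of 24. With loci in both tables only, 3 in knockdown cells lay at −1 or below, and 6 in knockdown and 2 in control cells at 1 or above. The control median was then 0.01 in place of 0.39. It was labelled unchanged because it lay inside the wide interval of −0.20 to 0.51 over all listed control loci. That interval takes the loci as independent, though some share a value, and the shared loci are a part of them. It therefore cannot show that the median held. At 1.5-fold, 23 in knockdown and 11 in control cells passed above and 10 in control cells below. The shares of all listed transcripts at 1.5-fold, or relative to ribosomal protein transcripts, were not computed. Whether the loci moved more than all transcripts under these alternatives was thus not tested. Without values of up to 10 whole reads, chosen after seeing the data, 2 in knockdown and 3 in control cells lay at −1 or below, 5 and 3 at 1 or above, out of 16 and 19. Of the 11 shared loci left, 5 had a difference of 1 or more in size and 8 shared a sign between cell populations, and 10 of 13 (knockdown) and 8 of 14 (control) shared the sign of the host. The few reads limit the 58 matched values, and the depth of the others is unknown.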

Other observations

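Transcripts annotated as miRNA host genes, with symbols that start with MIR and end in HG, are long enough to be read like other non-coding RNAs, and 18 were listed in either table. In the authors' deposited tables the 16 in knockdown cells had a median of 0.11 and the 16 in control cells a median of −0.01, as gene means, and 14 were in both. MIR17HG, host of the miR-17-92 cluster, stood at −1.09 in knockdown and −1.14 in control cells, and both of its transcripts lay below 0 in both authors' deposited tables, at −0.91 and −1.26 in knockdown and −0.98 and −1.30 in control cells. MIRLET7BHG, a host of let-7 hairpins, stood at −2.04 in knockdown and −1.28 in control cells in the authors' deposited tables. These hosts thus had values where no locus of their miRNAs was listed.

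MIR22HG, host of miR-22, had transcripts at 9.00, −0.15 and −0.37 in knockdown cells and at 1.65, 2.62 and 0.96 in control cells in the authors' deposited tables, where a further transcript, in control cells alone, was at −0.03, so its centred difference of 1.10 joined transcripts that differed in sign. MIR762HG was at 0.71 in knockdown and 2.07 in control cells, a centred difference of −1.35, as means of transcripts of opposite sign, at −0.99 and 2.41 in knockdown and −0.37 and 4.51 in control cells in the authors' deposited tables. MIR181A2HG, with 1 transcript, was at −1.44 and −0.54, a centred difference of −0.88. None of these differences has a value per library to set it against.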
